A study of Homo sapiens with 12 samples.

Results

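The expression of 39 genes that encode heat shock proteins and their cochaperones was described across 12 RNA-seq libraries of colon cancer cells. The members were chosen by name, as the genes of the HSP70, HSP110, HSP90, HSP40 (J-domain), small heat shock protein and mitochondrial chaperone families with their main cochaperones, the collagen chaperone SERPINH1 and the transcription factors HSF1 and HSF2. All 39 were found among the 60617 gene identifiers of the series, and all 39 were among the 15692 genes that passed the filter on low counts and were tested. Chaperones bind unfolded or newly made proteins, keep them from aggregating and help them to fold. HSP70 and HSP90 do this in cycles driven by ATP: J-domain proteins bring clients to HSP70, BAG and HSP110 proteins release the bound nucleotide, and STIP1 hands clients on to HSP90. Some family members are made at all times, while others are switched on when heat, proteotoxic drugs or heavy metals set free HSF1, which binds heat shock elements, runs of inverted nGAAn units, in their promoters.

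RNA came from HCT 116p53-/- cells, a human colon carcinoma line with p53 deleted, and from a stable sub-line of it that the sample labels call HCT 116p53-/- RPL3 KO and the study calls uL3ΔHCT 116p53-/-, in which RPL3, the gene of ribosomal protein uL3, was targeted. Both lines therefore lack p53. Each was given vehicle or 5 nM Act D, actinomycin D, for 24 h; at low doses this drug blocks mainly the synthesis of ribosomal RNA. Each of the 4 groups had 3 libraries that the labels describe as biological replicates, with totals of 10087925 to 21138886 counts per library. The study describes the sub-line as stably silenced for uL3, so that a difference between the lines is a difference between HCT 116p53-/- cells and a single derived line. RPL3 itself was at 1138 ± 15.3 CPM (counts scaled to an effective library of 1000000 counts, mean ± SD, n = 3) in vehicle-treated HCT 116p53-/- cells and at 1242 ± 82.5 in the vehicle-treated sub-line, a log2 difference of 0.13 (SE 0.08, adjusted p = 0.155). This and every adjusted p below, unless limma is named, come from the quasi-likelihood test of edgeR, fitted to all 12 libraries and adjusted over all genes tested by the method of Benjamini and Hochberg. On the deposited TPM, a level per transcript length in which every library sums to the same total, the direction was the other way: RPL3 was at 776 ± 53.3 TPM and 589.6 ± 48.0 TPM without overlap (log2 -0.40, adjusted p = 0.00816 by limma on log2(TPM + 0.5)), and at 738 ± 40.1 and 553 ± 42.6 TPM with Act D. On that scale the median of all genes tested was lower in the sub-line as well, by -0.364 with vehicle and -0.372 with Act D, so the direction for RPL3 depends on the scale. The sub-line is therefore named below only as such or by its label. The lines also differed in the markers of their tissue. Of 10 markers of colon epithelium, 6 were over 1 CPM in vehicle-treated HCT 116p53-/- cells and 4 in vehicle-treated libraries labelled RPL3 KO, and their summed level was 2567 and 1690 CPM. The cell adhesion genes CDH1 and EPCAM were at 0.445 against 66.8 and 35.5 against 153.5 CPM, the intestinal transcription factor CDX2 at 0.177 against 14.8 CPM and the keratins KRT19 and KRT8 at 36.6 against 609 and 777 against 1117 CPM, whereas KRT18 was at 840.3 against 605 CPM. KRT20 was under 1 CPM in both. CDH17, VIL1 and LGALS4 were near 0 in all groups. Of 8 mesenchymal markers, 2 and 5 were over 1 CPM, and their summed level was 30.6 to 44.8 CPM in the groups of HCT 116p53-/- cells and 2312 to 2401 CPM in those labelled RPL3 KO, mostly from VIM; leukocyte and endothelial markers summed to at most 1.44 CPM. The part of this difference in identity in the results below was not tested. Since these are bulk samples, a change in RNA per cell and a change in the share of cells that express a gene cannot be told apart.

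Many promoters of chaperone genes hold the sequence that HSF1 reads. Stretches from 8 members are shown here: 7 whose levels differed between the groups, and CHORDC1, whose element is the longest run of units among them and whose level did not pass in any comparison of the counts. RefSeq gives a promoter of 300 bases (250 before and 50 after the start) for 36 of the 39 members, GRCh38.p14. A heat shock element of 3 units, GAA and TTC in turn with 2 bases of any kind between neighbours, starting with either unit and on either strand, was found in the promoters of 9 of the 36 members (25%) and of 166 of all 27305 genes (0.608%). The 9 were HSPA6, HSPA8, HSP90AA1, HSP90AB1, CHORDC1, DNAJA1, DNAJB6, HSPD1 and SERPINH1. The shorter 2-unit form, 1 GAA and 1 TTC in either order with 2 bases between them, which each 3-unit element also contains, was found in 19 of the 36 (52.8%) and in 16.2% of all genes, including HSPA1A, HSPA1B and DNAJB1. The stretches below, upstream of the start and written 5′ to 3′ on the gene's strand, have the matched letters in capitals. They lie at chr1:161524446-161524498 (plus strand) for HSPA6, chr7:157336853-157336905 (plus) for DNAJB6, chr11:75562157-75562209 (plus) for SERPINH1, chr14:102087100-102087152 (minus) for HSP90AA1, chr11:90223067-90223129 (minus) for CHORDC1, chr6:31815417-31815464 (plus) for HSPA1A, chr6:31827613-31827660 (plus) for HSPA1B and chr19:14518417-14518494 (minus) for DNAJB1.
HSPA6: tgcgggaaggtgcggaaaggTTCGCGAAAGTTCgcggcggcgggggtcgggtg
DNAJB6: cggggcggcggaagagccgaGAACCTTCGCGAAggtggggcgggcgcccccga
SERPINH1: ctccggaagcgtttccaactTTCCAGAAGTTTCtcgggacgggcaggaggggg
HSP90AA1: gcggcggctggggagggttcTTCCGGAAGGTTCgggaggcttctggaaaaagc
CHORDC1: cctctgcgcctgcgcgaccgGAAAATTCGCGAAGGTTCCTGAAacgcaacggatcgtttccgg
HSPA1A: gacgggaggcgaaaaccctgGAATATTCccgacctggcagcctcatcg
HSPA1B: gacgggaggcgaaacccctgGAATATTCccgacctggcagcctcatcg
DNAJB1: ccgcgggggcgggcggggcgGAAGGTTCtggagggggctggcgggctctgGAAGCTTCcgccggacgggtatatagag

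The first 5 hold a 3-unit element, and in CHORDC1 3 matches overlap. HSPA1A and HSPA1B each hold a single 2-unit match, while DNAJB1 holds 2 separate matches. A match is only a match of letters and says nothing about binding in these cells.

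The heat map of all members shows larger differences between the lines than between vehicle and Act D. The median of the absolute log2 difference over the 39 members was 0.947 between the vehicle-treated lines, 0.219 for Act D in HCT 116p53-/- cells and 0.119 for Act D in the sub-line. Over all genes tested it was 0.743, 0.231 and 0.214, so that the same order holds for all genes, and the members had the higher median only between the lines.

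**Figure D1:**
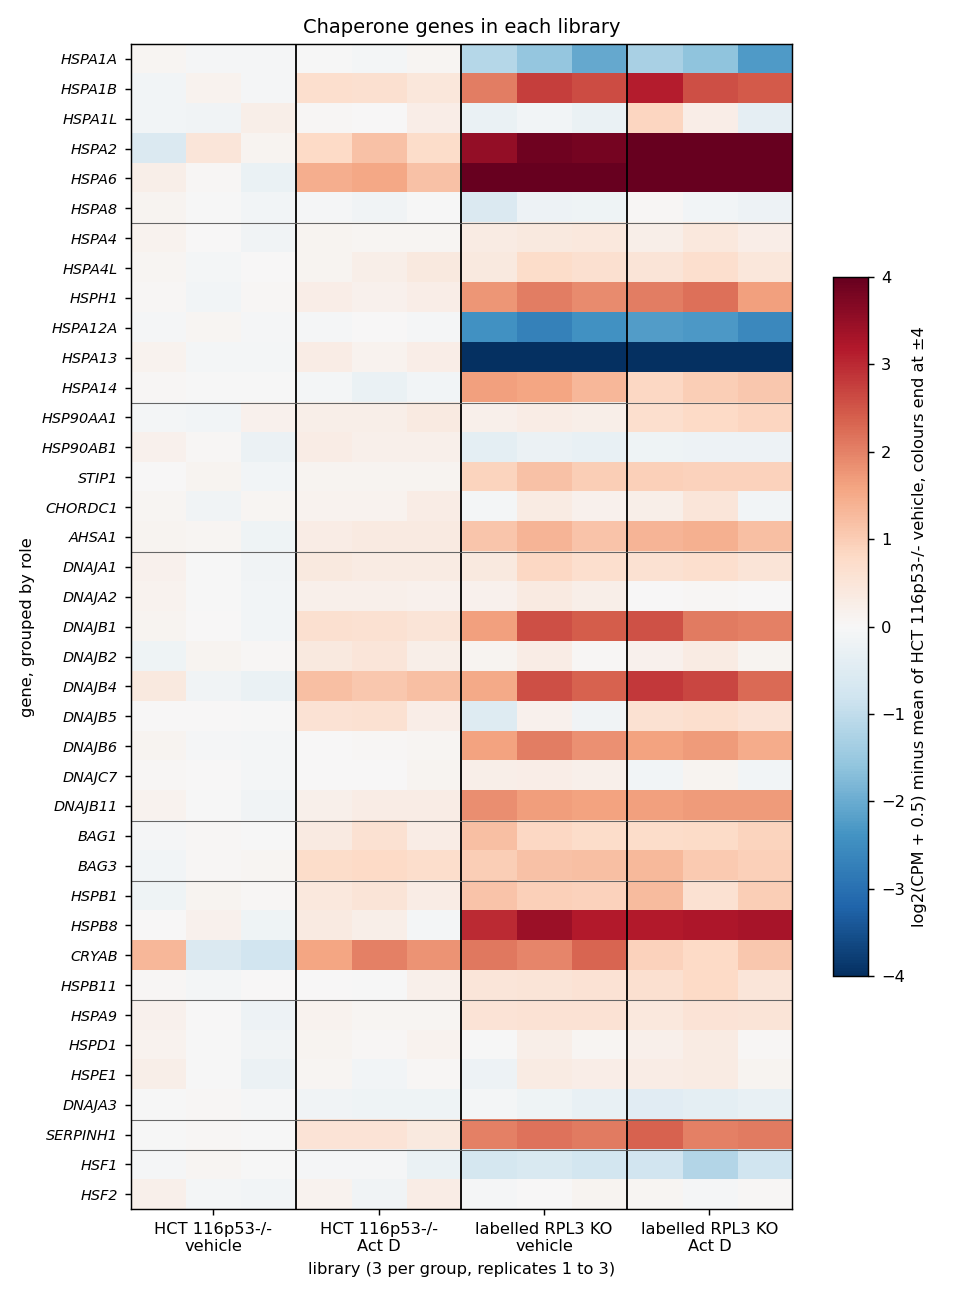
Heat map of log2(CPM + 0.5) for each of the 39 genes (rows, grouped by role) in each of the 12 libraries (columns), minus the mean of the 3 vehicle-treated HCT 116p53-/- libraries; colours end at ±4. HSPA2, HSPA6, HSPB8, HSPA1B and DNAJB1 are red across the 6 libraries labelled RPL3 KO, HSPA13 and HSPA12A are blue there, and 15 genes that rose with Act D show as a faint red in the HCT 116p53-/- Act D columns.

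The comparison of the lines asks how the chaperone genes differ between HCT 116p53-/- cells and the sub-line. In the vehicle-treated libraries labelled RPL3 KO, 25 of the 39 members had a higher level and 7 had a lower one, 32 in all (82.1%). Over all genes tested, 71.3% passed the same threshold, with 35.1% higher and 36.2% lower, so that most genes of any kind passed and the members were more often higher than lower. The median log2 difference was 0.56 over the members and -0.021 over all genes tested. Of the 39 members, 19 passed with a log2 difference of 1 or more, beside 37.7% of all genes. The groups did not overlap for 32 members, beside 72.5% of all genes. With Act D in both lines, 22 members were higher and 6 lower, 28 in all, beside 70.4% of all genes tested (35.1% higher and 35.3% lower). Of the 39 members, 14 passed with a log2 difference of 1 or more, a share close to the 37.1% of all genes. The groups did not overlap for 31 members, beside 74.1%, and the median was 0.364 over the members and -0.02 over all genes. These 22 and 6 members had the same direction with vehicle. Scaled by library size alone, without TMM factors, the median of all genes moved to -0.261 with vehicle and -0.263 with Act D, and 28 and 26 members passed, 21 higher and 7 lower with vehicle and 15 higher and 11 lower with Act D. The sign turned for 2 called members under that scaling, DNAJC7 with vehicle (0.23 to -0.008) and HSPA4 with Act D (0.21 to -0.0341).

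The split also moved on the deposited TPM, tested with limma. There 17 members were higher and 11 lower with vehicle (43.6% and 28.2%, beside 18% and 47% of all genes tested), and 13 were higher and 15 lower with Act D (33.3% and 38.5%, beside 17.9% and 47.2%). The median over the members was -0.025 with vehicle and -0.141 with Act D, beside the medians of all genes of -0.364 and -0.372. The 17 higher on TPM with vehicle were all among the 25 higher in the counts. The sign turned with vehicle for 6 called members, HSPA4, HSPA4L, HSP90AA1, DNAJA2, DNAJC7 and HSPA9, and with Act D for HSPA4, HSPA4L, DNAJA1, BAG1, BAG3 and HSPA9, all with a log2 difference under 1 in the counts. Protein-coding genes held 32.3 to 36.5% of the TPM in HCT 116p53-/- libraries and 27.2 to 33.5% in those labelled RPL3 KO, and the part of this in the shift was not tested. Differences below are those of the TMM-scaled counts. For members the TPM value is given where its sign differs and the difference passed on either scale. HSF2, HSPE1 and DNAJB2, not listed among these, also had a higher mean CPM and a lower mean TPM in the vehicle-treated sub-line. The plot of differences between the lines gives all 39 members.

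**Figure D2:**
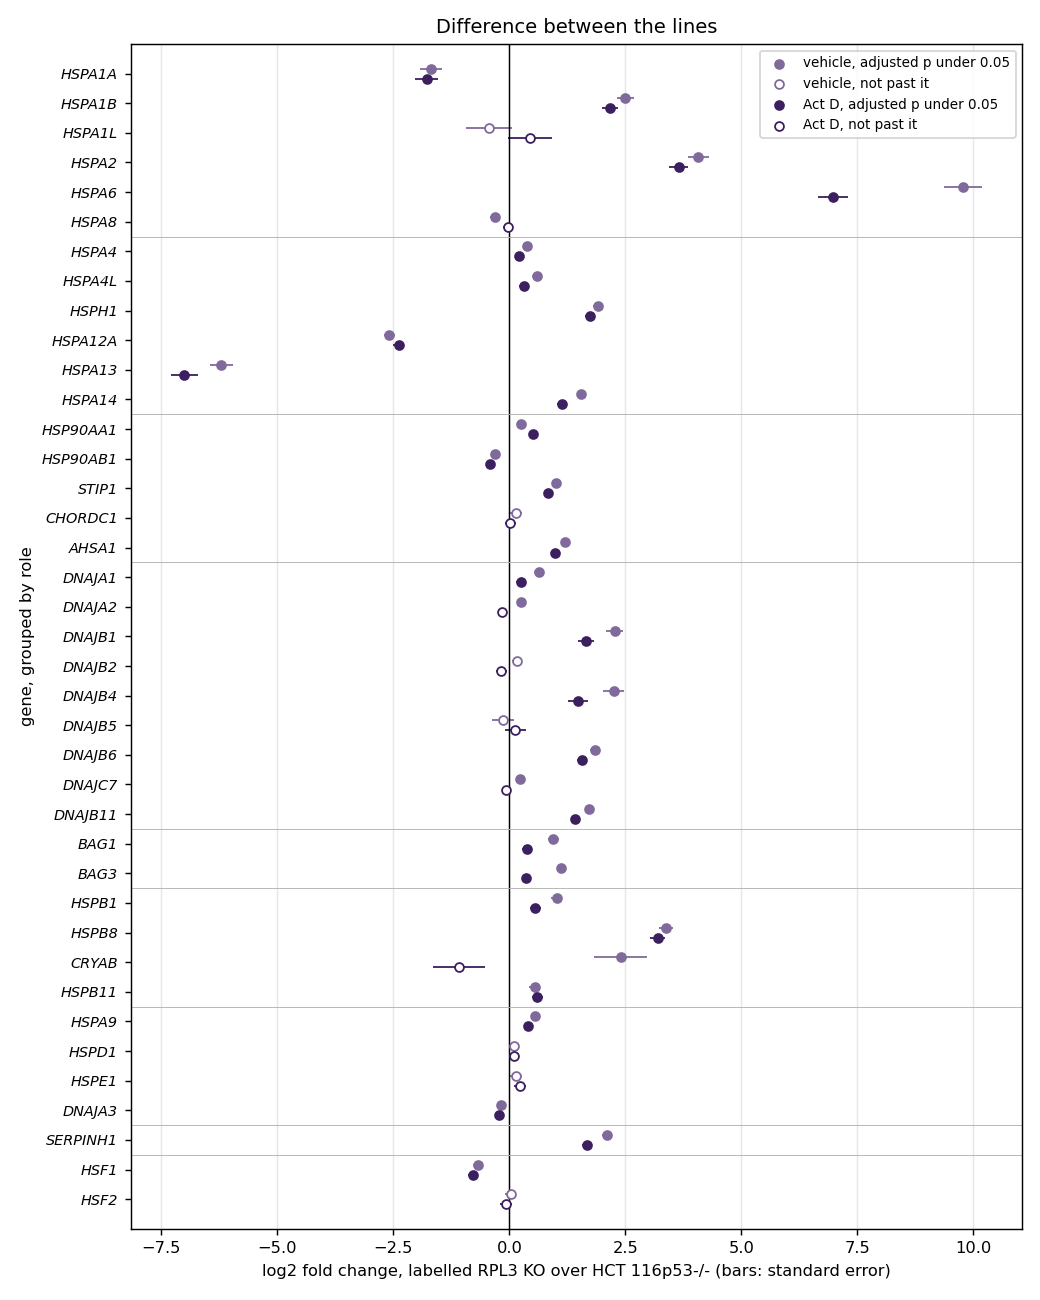
Log2 fold change of the libraries labelled RPL3 KO over HCT 116p53-/- for each gene, with vehicle (light) and with Act D (dark); bars are standard errors, filled points have an adjusted p under 0.05. HSPA6 lies farthest right and HSPA13 farthest left, and the light and dark points of most genes lie close together. Those of CRYAB and of some others, among them DNAJA2 and DNAJC7, lie on opposite sides of 0.

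Among the inducible HSP70 genes, HSPA6 had the largest difference of any member. HSPA6 encodes HSP70B′, which most cells make only under stress. In vehicle-treated HCT 116p53-/- cells it was at 0.389, 0.276 and 0.121 CPM, from 6, 4 and 2 counts. In the vehicle-treated libraries labelled RPL3 KO it was at 168, 291 and 244 CPM. The gene was thus close to absent in every library of the first group and well expressed in every library of the second, 878-fold higher on average (log2 9.78, SE 0.41, adjusted p = 4.02e-13). With Act D the libraries labelled RPL3 KO held 266, 179.8 and 120.2 CPM, against 1.56, 1.69 and 1.21 CPM, and the fold was 125.5 (log2 6.97, SE 0.33, adjusted p = 2.6e-12). Of its 75-base stretches 35.3% also occur in the pseudogene HSPA7, listed at 0.929 CPM in the vehicle-treated sub-line, and how RSEM divided such reads is uncertain. HSPA6 lies at chr1:161524540-161526894 (hg38, plus strand).

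HSPA1A and HSPA1B lie side by side (hg38, plus strand, chr6:31815543-31817946 and chr6:31827738-31830254) and encode the same major inducible HSP70. Their counts went apart: HSPA1B was 5.64-fold higher in the vehicle-treated libraries labelled RPL3 KO (SE 0.18 on the log2 scale, adjusted p = 7e-10), while HSPA1A was lower (log2 -1.69, SE 0.23, adjusted p = 3.46e-06). On the TPM scale of transcripts HSPA1A was at most 0.298% of the sum of 6 cytosolic HSP70 genes in any library, and HSPA1B at least 7.3%. HSPA1A was at 9.44 to 10.2 CPM in vehicle-treated HCT 116p53-/- cells and 1.96 to 4.18 CPM in the vehicle-treated libraries labelled RPL3 KO. Since 73.8% of the 75-base stretches of HSPA1A also occur in HSPA1B, how RSEM divided reads between them is uncertain, and the sum is the safer value. Summed, they were at 325, 383 and 337 CPM in vehicle-treated HCT 116p53-/- cells and at 1405, 2290.0 and 2046 CPM in the vehicle-treated libraries labelled RPL3 KO, a 5.49-fold difference without overlap (log2 2.46, SE 0.18, adjusted p = 8.07e-10). A further annotated gene, ENSG00000285565, overlaps HSPA1B on the same strand and shares 34.7% of its stretches; it went from 33.4 to 247 CPM on average and was not added to the sum.

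The other HSP70 genes of the cytosol went different ways. HSPA2, which is best known from the testis, was at 0.843, 2.27 and 1.63 CPM in vehicle-treated HCT 116p53-/- cells and at 22.5, 29.0 and 28.0 CPM in the vehicle-treated libraries labelled RPL3 KO, 16.8-fold higher (log2 4.07, SE 0.23, adjusted p = 2.71e-11). HSPA8, the constitutive HSC70, was at 3361, 3096 and 2881 CPM and at 2079, 2715 and 2761 CPM, slightly lower in the sub-line (-0.31, SE 0.11, adjusted p = 0.0167). That call was lost without replicate 1 of either vehicle group, with an adjusted p of 0.0712 and 0.097. With Act D the difference in HSPA8 was -0.02 (SE 0.11) and did not pass the threshold. On TPM HSPA8 was at 1181 ± 143 in HCT 116p53-/- cells and 679 ± 70.8 in the sub-line with vehicle. With Act D it was at 1087 ± 45.8 and 749 ± 113 TPM. On that scale the median of all genes tested was lower in the sub-line too, by -0.364 and -0.372. HSPA1L, a neighbour of HSPA1A known from the testis, was at 0.348 to 1.46 CPM over all libraries and did not pass in any comparison.

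The make-up of the cytosolic HSP70 transcripts therefore differed between the lines. On the length-corrected TPM scale, which counts transcripts and not reads, HSPA8 was 90.4 to 92.4% of the summed transcripts of the 6 genes HSPA1A, HSPA1B, HSPA1L, HSPA2, HSPA6 and HSPA8 in vehicle-treated HCT 116p53-/- cells. In the vehicle-treated libraries labelled RPL3 KO it was 55.3 to 61.5%. The inducible genes HSPA1A, HSPA1B and HSPA6 together made up 7.6 to 9.51% and 38.1 to 44.3%. The sum of the 6 genes was 1205 to 1457 TPM in the first group and 1061 to 1291 TPM in the second. On that scale the groups thus overlapped in the total and not in its make-up. In CPM the sum was 3688, 3482 and 3221 against 3675, 5326 and 5080, an overlap through replicate 1 of the sub-line alone. With Act D it was 3341 to 3580 against 4705 to 6513 CPM, without overlap. Whether the total differed between the lines therefore depends on the scale.

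**Figure D3:**
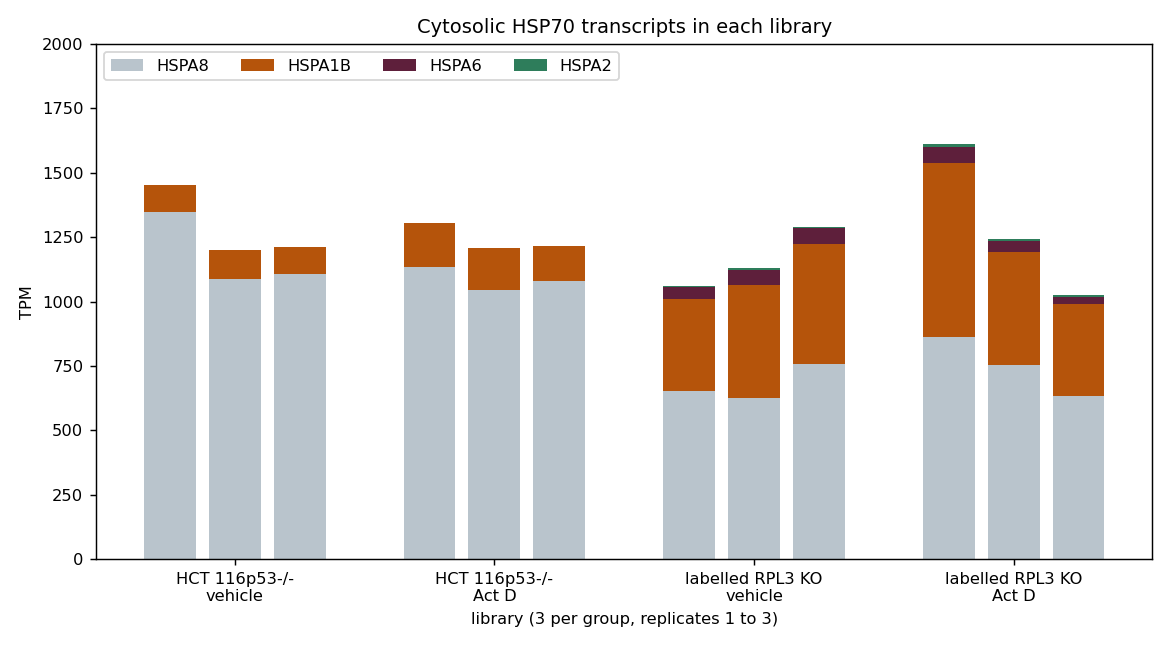
Stacked bars of the TPM of HSPA8, HSPA1B, HSPA6 and HSPA2 in each of the 12 libraries; HSPA1A and HSPA1L, under 0.3% of the sum in each library, are left out. The height of the bars overlaps between the groups, from 1025 to 1612 TPM, while the HSPA1B section grows from 7.3 to 9.23% of the sum in vehicle-treated HCT 116p53-/- libraries to 33.6 to 38.9% in the vehicle-treated libraries labelled RPL3 KO.

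All 6 HSP110 and other HSP70 relatives differed between the lines in the counts, beside 71.3% of all genes tested with vehicle. In the libraries labelled RPL3 KO 4 were higher and 2 lower, while on TPM 2 were called higher and 2 lower. HSPH1, the HSP110 protein that releases ADP from HSP70 and works with it in dissolving aggregates, was at 131, 118 and 132 CPM with vehicle in HCT 116p53-/- cells and at 433, 524 and 477 CPM in the sub-line (log2 1.91, SE 0.12, adjusted p = 7.31e-11). Its relatives HSPA4 and HSPA4L were higher by 0.39 and 0.59 in the counts, with -0.24 and -0.0254 on TPM. HSPA14, which sits with a J-domain partner on the ribosome, was higher by 1.55 (SE 0.10, adjusted p = 1.81e-10); 14.5% of its stretches are shared with MSANTD7, a gene that overlaps it on the same strand. The largest decrease of any member was in HSPA13, a microsomal HSP70 relative without the substrate-binding domain. It was at 47.8, 40.6 and 41.2 CPM in vehicle-treated HCT 116p53-/- cells and at 0.803, 0.35 and 0.675 CPM, from 10, 7 and 10 counts, in the vehicle-treated libraries labelled RPL3 KO (-6.21, SE 0.25, adjusted p = 2.49e-13). With Act D the sub-line held 4, 8 and 0 counts of it. HSPA12A, an atypical and distant HSP70 relative, was at 48.5, 52.5 and 48.7 CPM with vehicle in HCT 116p53-/- cells and at 8.92, 7.25 and 8.91 CPM in the sub-line (-2.59, SE 0.11, adjusted p = 7.56e-13).

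In the HSP90 group the gene of the stress-responsive form, HSP90AA1, was higher relative to that of the constitutive form, HSP90AB1, in the sub-line. HSP90AA1 was at 1626, 1586 and 1903 CPM with vehicle in HCT 116p53-/- cells and at 1948, 2105 and 2003 CPM in the sub-line (0.24, SE 0.09, adjusted p = 0.0193). HSP90AB1 was at 3678, 3419 and 2824 CPM and at 2502, 2810.0 and 2677 CPM (-0.31, SE 0.09, adjusted p = 0.00682). The first of these calls was lost without replicate 1 or 2 of vehicle-treated HCT 116p53-/- cells, without replicate 2 of the vehicle-treated sub-line, and under scaling by library size alone, where the difference was 0.002. On TPM it was -0.19 (adjusted p = 0.179 by limma), beside -0.81 for HSP90AB1 (adjusted p = 0.000137 by limma), so that the direction for HSP90AA1 depends on the scale and that for HSP90AB1 was the same on both. Their ratio within a library does not depend on the scaling: HSP90AA1 was at 0.331 to 0.506 times the TPM of HSP90AB1 in vehicle-treated HCT 116p53-/- libraries and at 0.593 to 0.601 times in the vehicle-treated libraries labelled RPL3 KO. The cochaperones STIP1 (HOP, which bridges HSP70 and HSP90) and AHSA1 (which speeds the ATPase of HSP90) were higher by 1.01 (SE 0.08, adjusted p = 5.78e-09) and 1.21 (SE 0.10, adjusted p = 2.68e-09). CHORDC1, an HSP90 cochaperone whose promoter holds the overlapping elements shown above, was at 98.0 to 116 CPM and 104 to 136 CPM and did not pass the threshold (0.15, SE 0.13, adjusted p = 0.305); on TPM it was lower (-0.43, adjusted p = 0.0179 by limma).

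Of 9 J-domain genes, 7 were higher in the vehicle-treated libraries labelled RPL3 KO and none was lower in the counts. Of all genes tested, 35.1% were higher and 36.2% lower there. On TPM 4 of the J-domain genes were higher and DNAJA2 and DNAJB5 lower. DNAJB2 and DNAJB5 did not pass in the counts. DNAJB1, the main stress-inducible partner of HSP70, was at 128, 121 and 109.8 CPM in vehicle-treated HCT 116p53-/- cells and at 376, 715 and 635 CPM in the vehicle-treated sub-line (log2 2.27, SE 0.18, adjusted p = 3.05e-09). Its relative DNAJB4 was at 13.6, 9.37 and 8.51 CPM and at 30.04, 63.9 and 54.3 CPM (2.24, SE 0.23, adjusted p = 8.35e-08). In both, replicate 1 of the sub-line was the lowest of its 3 libraries and still above every HCT 116p53-/- library. DNAJB6, which holds back aggregation of polyglutamine proteins, was at 71.5, 63.6 and 62.3 CPM and at 200.2, 272 and 232 CPM (1.84, SE 0.10, adjusted p = 2.99e-11). DNAJB11, a partner of the ER chaperone BiP, was at 66.7, 59.5 and 55.1 CPM and at 218, 194 and 183 CPM (1.72, SE 0.09, adjusted p = 9.34e-12). Of its 75-base stretches 29.5% also occur in other genes, 16.3% in ENSG00000283149 and 13.3% in TBCCD1. ENSG00000283149 overlaps it on the same strand and went from 4.70 to 14.6 CPM on average. The share found in other genes was 15.4% for DNAJB6, 31.1% for HSPE1 and 14.4% for STIP1, so the division of their reads is uncertain too. The general HSP70 partners DNAJA1 and DNAJA2 and the HSP70 and HSP90 adaptor DNAJC7 had smaller differences, of 0.64, 0.26 and 0.23; under library size alone that of DNAJA2 was 0.0189, and on TPM DNAJA2 and DNAJC7 were at -0.32 and -0.30.

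Both BAG genes were higher, BAG1 by 0.95 (SE 0.12, adjusted p = 8.25e-07) and BAG3 by 1.12 (SE 0.10, adjusted p = 1.17e-08). BAG proteins release nucleotide from HSP70, and BAG3, together with HSPB8, routes clients to autophagy. The 4 small heat shock proteins were higher too, and all but HSPB11 passed on TPM as well. Of all genes tested, 35.1% were higher with vehicle in the counts. HSPB8 was at 3.5, 3.92 and 3.02 CPM in vehicle-treated HCT 116p53-/- cells and at 30.9, 42.0 and 35.3 CPM in the vehicle-treated sub-line, 10.4-fold higher and without overlap (log2 3.38, SE 0.15, adjusted p = 1.26e-12). HSPB1 (HSP27) was higher by 1.02 and HSPB11 (IFT25, a protein of cilia) by 0.54. CRYAB, αB-crystallin, was at 1.88, 0.138 and 0.0604 CPM, from 29, 2 and 1 counts, and at 3.62, 3.2 and 4.25 CPM (2.40, SE 0.57, adjusted p = 0.00113). Its first group spread widely, with replicate 1 far above the other 2, and still did not overlap with the second.

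The mitochondrial chaperones differed little. HSPD1 and HSPE1, the chaperonin and its lid, did not pass in any of the 5 comparisons of the counts, although on TPM HSPD1 was lower in the sub-line (-0.39, adjusted p = 0.0191 by limma). HSPA9 (mortalin, the mitochondrial HSP70) was higher by 0.56 in the counts (SE 0.09, adjusted p = 1.53e-05), with -0.0377 on TPM, and its J-domain partner DNAJA3 lower by 0.19 on the log2 scale (-0.19, SE 0.08, adjusted p = 0.0425). SERPINH1 (HSP47), which folds collagen in the ER, was at 67.5, 70.0 and 67.7 CPM in vehicle-treated HCT 116p53-/- cells and at 279, 312 and 288 CPM in the sub-line (log2 2.10, SE 0.09, adjusted p = 1.14e-12). Of the 3 collagen genes among the mesenchymal markers, COL3A1 was at 0.306 CPM on average in vehicle-treated HCT 116p53-/- cells and 57.9 CPM in the vehicle-treated sub-line, COL1A1 at 7.496 and 4.15 CPM and COL1A2 at 0.384 and 0.320 CPM. The part of the mesenchymal markers in the SERPINH1 difference was not tested. HSF1 itself was lower in the sub-line, at 48.5, 50.9 and 46.9 CPM against 75.2, 83.3 and 77.2 CPM (-0.69, SE 0.10, adjusted p = 1.15e-05), and HSF2 was at 20.8 to 23.6 against 19.99 to 24.8 CPM (0.03, SE 0.12).

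Of the 9 members with a 3-unit element, 5 were higher and 2 lower in the vehicle-treated libraries labelled RPL3 KO, with a median difference of 0.244. Of the 27 members with a promoter and no such element, 18 were higher and 4 lower, with a median of 0.56. With the 2-unit form as the criterion, 13 of 19 and 10 of 17 were higher, with medians of 0.64 and 0.261. The members with the element thus had the lower median by the first form and the higher one by the second. Of all genes tested, 35.1% were higher and 36.2% lower. Only exact GAA and TTC units were searched, so members without a match may hold an element with a differing letter. The split therefore does not separate members with and without any heat shock element.

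The next comparison asks how each line responded to 5 nM Act D. In HCT 116p53-/- cells 15 of the 39 members (38.5%) were up-regulated and none was down-regulated at an adjusted p under 0.05. Of all genes tested 7.59% rose and 11.1% fell. The median log2 change was 0.219 over the members and 0.018 over all genes. The 3 Act D libraries did not overlap with the 3 vehicle libraries for 25 members, against 38.2% of all genes tested. DESeq2 called 14 members and the likelihood-ratio test of edgeR 15. The changes were small: 4 of the 39 members passed with a log2 change of 1 or more, beside 2.89% of all genes. The count of members that passed the threshold depended on single libraries. It was 6 without Act D replicate 1, 3 without Act D replicate 2, and 9 and 7 without vehicle replicates 2 and 3. Without Act D replicate 2 the genes called over the whole table went from 2939 to 1949. Scaled by library size alone, which put the median of all genes at -0.081, 6 members passed.

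Without Act D replicate 2 the 3 members that passed were BAG3, DNAJB4 and SERPINH1. These also passed under every other scaling, filter, tool and left-out library that was run on the counts, and each of the other 12 missed the threshold under at least 1. On TPM with limma, which called 4.7% of all genes, BAG3, DNAJB4 and CRYAB passed and SERPINH1 did not (0.51, adjusted p = 0.0531). BAG3 (chr10:119651380-119677819, hg38, plus strand) had the smallest adjusted p among the members and was at 43.4, 48.7 and 49.5 CPM with vehicle and at 79.0, 82.5 and 77.3 CPM with Act D in HCT 116p53-/- cells, 1.69-fold higher with a wide gap between the groups (log2 0.75, SE 0.10, adjusted p = 3.86e-05). Its highest adjusted p under the alternatives on the counts was 0.000595. DNAJB4 went from 13.6, 9.37 and 8.51 CPM to 24.4, 22.4 and 24.3 CPM (1.18, SE 0.23, adjusted p = 0.00174) with a highest adjusted p of 0.0128. SERPINH1 rose from between 67.5 and 70.0 to between 89.1 and 101 CPM (0.50, SE 0.09, adjusted p = 0.000909), with a highest adjusted p of 0.0203.

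The inducible HSP70 genes rose by less certain amounts. HSPA1A and HSPA1B summed were at 545, 533 and 478 CPM with Act D against 325, 383 and 337 CPM, 1.49-fold higher without overlap (log2 0.57, SE 0.17, adjusted p = 0.0244). This call was lost without vehicle replicate 1 or 3, without Act D replicate 1 or 2, and with library size alone, while the value stayed between 0.48 and 0.65. The inducible share of the 6 HSP70 genes was 11.3 to 13.8% of TPM with Act D, above the 7.6 to 9.51% with vehicle. HSPA6 went from 6, 4 and 2 counts to 25, 25.1 and 15 counts, or 1.21 to 1.69 CPM (5.65-fold, SE 0.77 on the log2 scale, adjusted p = 0.0303). This call was lost without any of the 3 vehicle libraries and without Act D replicate 1 or 2, with an adjusted p of up to 0.11. HSPA2 rose from 0.843 to 2.27 CPM to 2.81 to 3.99 CPM (1.05, SE 0.29, adjusted p = 0.0163), a call lost without vehicle replicate 1 or Act D replicate 2, with adjusted p = 0.0807 and 0.0856.

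Of the 9 J-domain genes, 5 rose in HCT 116p53-/- cells (55.6%, beside 7.59% of all genes tested). Beside DNAJB4 these were DNAJB1, from between 109.8 and 128 CPM to 171, 182 and 184 CPM (0.58, SE 0.17, adjusted p = 0.0268), DNAJB2 (0.38), DNAJA1 (0.35) and DNAJB11 (0.28). DNAJB5 was at 2.48 to 2.55 CPM with vehicle and 3.14 to 4.12 CPM with Act D and did not pass (0.59, SE 0.24, adjusted p = 0.0942). Of 33 tested J-domain genes outside the members, 3 rose and 4 fell, with a median of -0.012. Of the HSP90 group AHSA1 (0.34, SE 0.09, adjusted p = 0.0189) and HSP90AA1 (0.27, SE 0.09, adjusted p = 0.0384) passed and its other genes did not. The groups did not overlap for all 5 of its genes, beside 38.2% of all genes tested. For STIP1 the highest vehicle library and the lowest Act D library were both at 409.3 CPM to the digits given. BAG1 (0.43, SE 0.12, adjusted p = 0.0151) and HSPB1 (0.42, SE 0.13, adjusted p = 0.027) rose as well. CRYAB was at 2.31, 3.31 and 2.81 CPM with Act D against 1.88, 0.138 and 0.0604 CPM with vehicle (2.01, SE 0.59, adjusted p = 0.0228); DESeq2 did not call it, nor did edgeR without vehicle replicate 2 or 3 or Act D replicate 2, with an adjusted p of up to 0.0897. None of the HSP110 group, the mitochondrial chaperones or the heat shock factors passed. HSF1 was at 75.2 to 83.3 and 64.7 to 76.3 CPM (-0.12, SE 0.10).

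**Figure D4:**
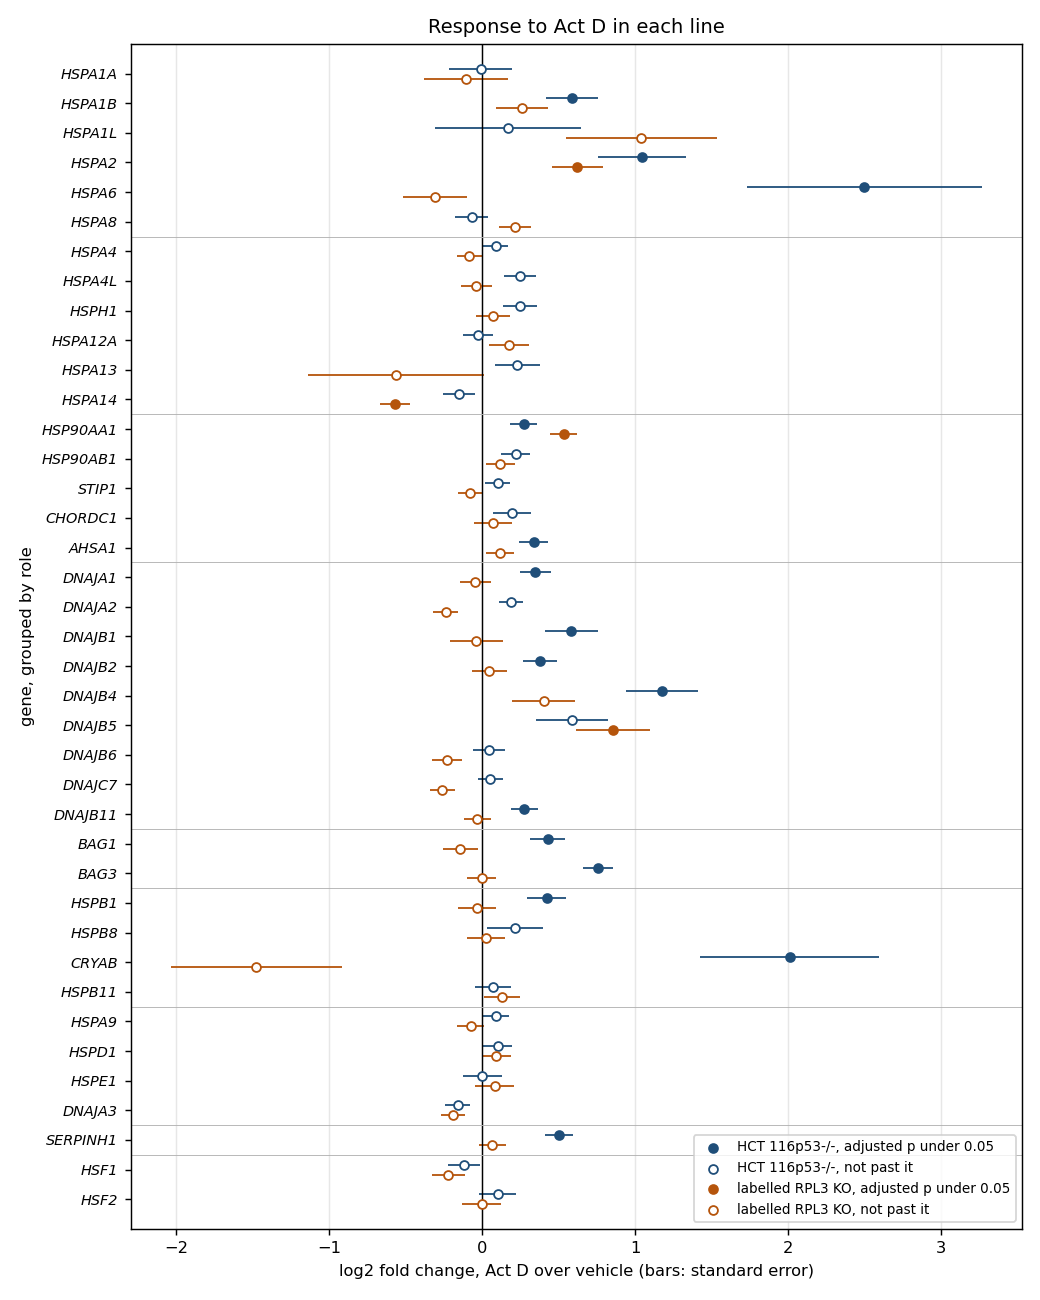
Log2 fold change of Act D over vehicle for each gene in HCT 116p53-/- cells (blue) and in the libraries labelled RPL3 KO (orange); bars are standard errors and filled points have an adjusted p under 0.05. Of the 39 blue points, 33 lie right of 0 and 15 are filled, whereas 18 orange points lie right of 0 and 4 are filled.

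In the libraries labelled RPL3 KO, 3 of the 39 members were up-regulated by Act D and 1 was down-regulated, against 11.9% of all genes tested (3.51% higher and 8.4% lower). The median change was -0.004 over the members and 0.029 over all genes. HSP90AA1 went from 1948, 2105 and 2003 CPM to 2737, 2950.0 and 3076 CPM, the rise with the smallest adjusted p (log2 0.53, SE 0.09, adjusted p = 0.000566). HSPA2 rose further, from 22.5, 29.0 and 28.0 CPM to 48.6, 34.0 and 39.5 CPM (0.62, SE 0.17, adjusted p = 0.021), and DNAJB5 from 1.61, 2.9 and 2.23 CPM to 4.14, 4.34 and 3.94 CPM (0.85, SE 0.24, adjusted p = 0.0284). HSPA14 fell from 88.0, 84.8 and 71.3 CPM to 49.5, 56.0 and 59.6 CPM (-0.57, SE 0.10, adjusted p = 0.000834). The groups did not overlap for these 4 genes, among 10 such members in all, beside 27.6% of all genes. None of the 4 changes reached a log2 of 1, as 1.29% of all genes did. The count was 2 without Act D replicate 3. Scaled by library size alone, which put the median of all genes at -0.07, 1 member rose and 5 fell. On TPM limma called 0 members at the adjusted threshold and 7 at an unadjusted p under 0.05, beside 1.5% and 14.6% of all genes. The call of HSPA2 was lost without vehicle replicate 1 or Act D replicate 1 or 3, and that of DNAJB5 without vehicle replicate 1 or 3 or any Act D library, with an adjusted p of up to 0.14 and 0.112. HSPA2 and HSP90AA1 were the 2 members called higher with Act D in both lines, and neither held its call in HCT 116p53-/- cells under all alternatives.

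BAG3, DNAJB1, DNAJB4, SERPINH1 and the sum of HSPA1A and HSPA1B were each higher in every vehicle-treated library of the sub-line than in any Act D-treated library of HCT 116p53-/- cells in CPM, whereas on TPM the libraries overlapped for BAG3. The same held in CPM for HSPA6, HSPA2, DNAJB11, AHSA1, DNAJA1, HSPB1 and BAG1. For HSP90AA1, DNAJB2 and CRYAB, which also rose with Act D in HCT 116p53-/- cells, these libraries overlapped in CPM. HSP90AA1 was at 1948 to 2105 against 1999 to 2162 CPM. DNAJB2 was at 25.2 to 29.8 against 28.3 to 34.2 CPM and CRYAB at 3.2 to 4.25 against 2.31 to 3.31 CPM. The groups compared here differ in both line and treatment. The share of all genes with this pattern was not counted, so it is not read as particular to these members. Between the vehicle-treated lines 72.5% of all genes did not overlap. BAG3 was at 92.9, 107 and 108 CPM with vehicle and at 117, 98.4 and 91.5 CPM with Act D in the libraries labelled RPL3 KO (-0.004, SE 0.10, adjusted p = 0.991). The corresponding change was -0.04 for DNAJB1 (SE 0.17), 0.40 for DNAJB4 (SE 0.20), 0.07 for SERPINH1 (SE 0.09) and 0.26 for the sum of HSPA1A and HSPA1B (SE 0.17, adjusted p = 0.357). The last rests in part on Act D replicate 1, at 3019 CPM beside 2027 and 1837 CPM, without which it was 0.01. HSPA6 went from 168, 291 and 244 CPM to 266, 179.8 and 120.2 CPM, with groups that overlap (-0.31, SE 0.21, adjusted p = 0.383). Without Act D replicate 1 it was lower with Act D (-0.65, adjusted p = 0.0458), as it was without a filter on low counts (-0.36, adjusted p = 0.00759).

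**Figure D5:**
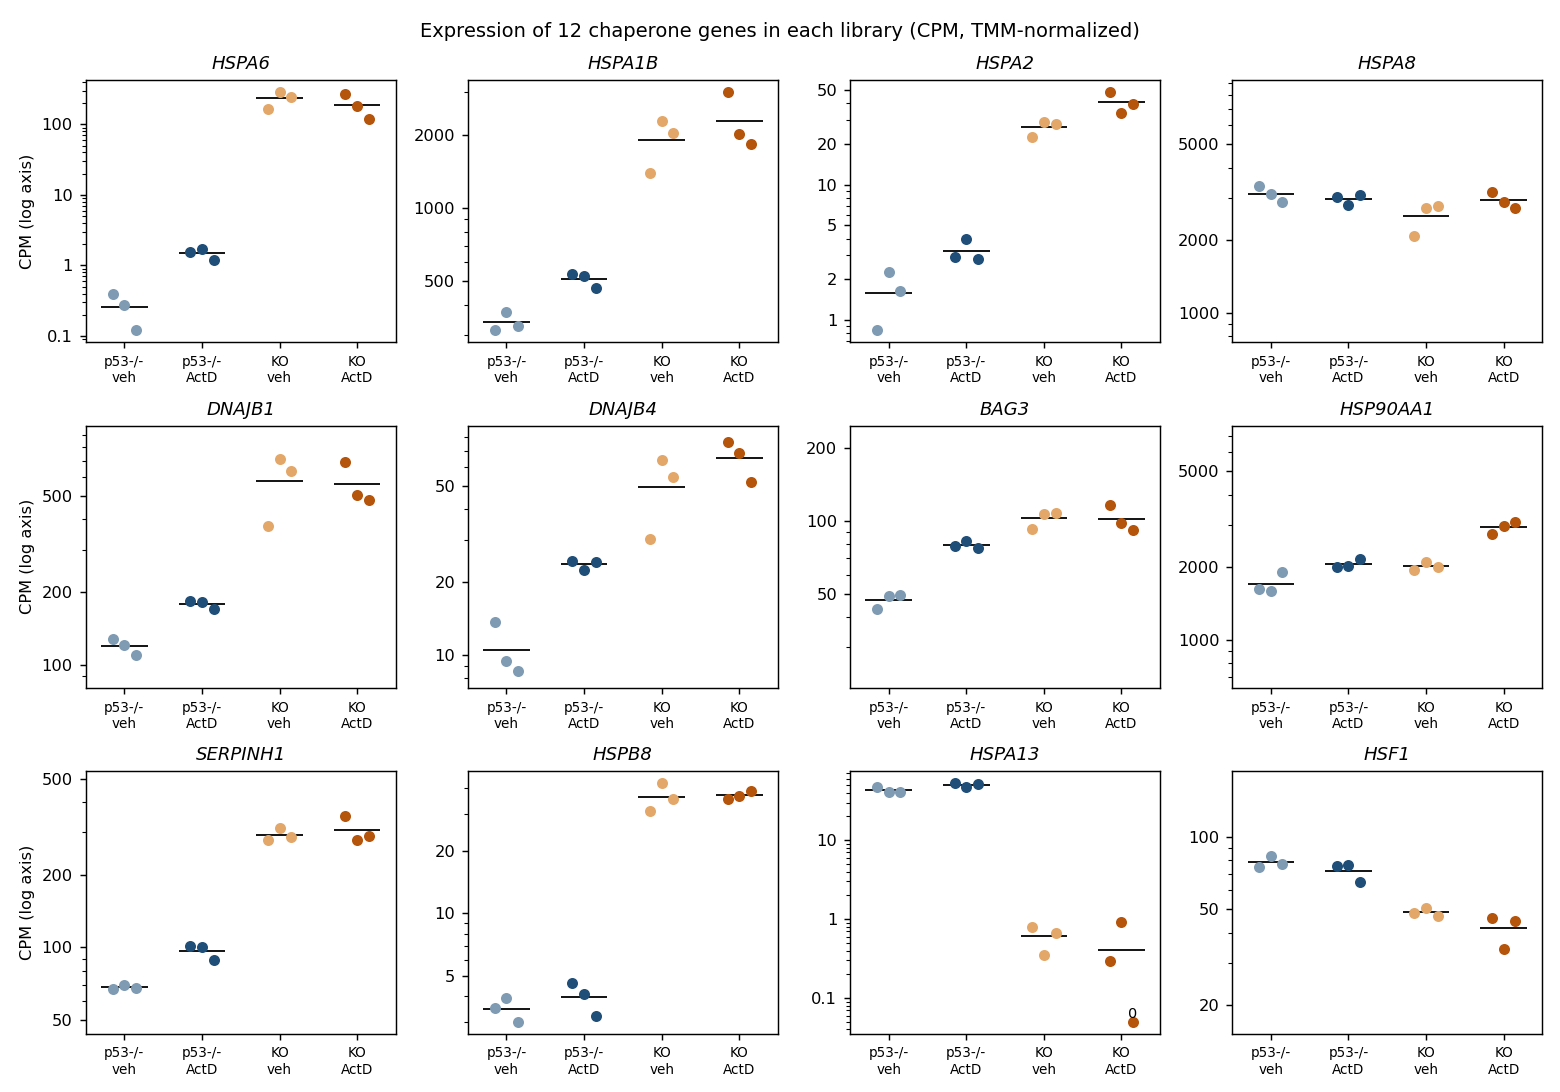
CPM on a log axis of 12 genes in each library (points), with the group mean (line), for HCT 116p53-/- cells (p53-/-, blue) and the libraries labelled RPL3 KO (KO, orange) with vehicle (veh) and Act D; a library with 0 counts of HSPA13 is drawn at the foot of its panel and marked 0. For BAG3, DNAJB1, SERPINH1 and HSPA1B the blue groups do not overlap and the orange groups do.

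The difference between the responses was tested directly as the interaction of line and treatment. A negative value is a lower log2 change in the libraries labelled RPL3 KO, be it a smaller rise, a fall or a larger fall. The interaction was negative for 32 of the 39 members, with a median of -0.219 against -0.007 over all genes tested. Since each response shares its vehicle libraries with the difference between the lines, this count is a description. An interaction with a log2 of 1 or more passed for 2 of the 39 members, beside 1.81% of all genes. The threshold alone was passed by 5 members, all lower, beside 6.53% of all genes tested (3.23% lower and 3.3% higher). These were BAG3 (-0.76, SE 0.14, adjusted p = 0.00324), CRYAB (-3.49, SE 0.81, adjusted p = 0.0151), DNAJA2 (-0.43, SE 0.11, adjusted p = 0.0293), HSPA6 (-2.81, SE 0.79, adjusted p = 0.0419) and BAG1 (-0.57, SE 0.16, adjusted p = 0.0433). BAG3 and CRYAB passed under every other scaling, filter, tool and left-out library that was run on the counts, with highest adjusted p-values of 0.0118 and 0.042, and the other 3 did not (0.0741 to 0.123). On TPM with limma, which called 0.452% of all genes, CRYAB passed (adjusted p = 0.0442) and BAG3 did not (-0.74, adjusted p = 0.141). The count was 3 without vehicle replicate 1 of HCT 116p53-/- cells, 2 without vehicle replicate 2 or 3 or without Act D replicate 1 or 2 of that line, 8 without vehicle replicate 1 and 3 without vehicle replicate 2 of the sub-line, 10 without a filter on low counts and 3 with library size alone. CRYAB crossed over: it was at 3.62, 3.2 and 4.25 CPM with vehicle and 1.31, 1.14 and 1.51 CPM with Act D in the sub-line, opposite to HCT 116p53-/- cells, although neither this change (-1.48, SE 0.56, adjusted p = 0.0991) nor the difference between the lines with Act D (-1.09, SE 0.57, adjusted p = 0.0986) passed by itself. Both passed without vehicle replicate 1 or 3 of HCT 116p53-/- cells. CRYAB lies at chr11:111908564-111923722 (hg38, minus strand). It overlaps HSPB2 on the other strand, and the strand setting of the counting is not given in the sources used here. In all, 19 of the 39 members overlap an annotated gene of the other strand. For 12 of them it is a protein-coding gene: CRYAB, HSPA12A, HSPA14, HSP90AA1, AHSA1, DNAJB1, DNAJB11, DNAJC7, BAG1, HSF1, and HSPD1 and HSPE1, which overlap each other. DNAJA2 was at 123 to 144 CPM and 148 to 152 CPM in HCT 116p53-/- cells and at 149.6 to 169 CPM and 132 to 135 CPM in the sub-line.

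The ratio of HSP90AA1 to HSP90AB1 in TPM was 0.395 ± 0.0964 (SD, n = 3) with vehicle and 0.402 ± 0.03 with Act D in HCT 116p53-/- cells. The libraries labelled RPL3 KO had ratios of 0.597 ± 0.00419 with vehicle and 0.797 ± 0.0471 with Act D. The groups of the sub-line did not overlap, at 0.593 to 0.601 and 0.746 to 0.838, and those of HCT 116p53-/- cells did. The interaction for HSP90AA1 itself was 0.26 (SE 0.12) and did not pass (adjusted p = 0.236).

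Replicates also differed in many chaperone genes at once. In the vehicle-treated libraries labelled RPL3 KO, replicate 1 was the lowest of the 3 for 27 members (69.2%), against 41.7% of all genes tested, and replicate 2 the highest for 25 members (64.1%), against 32.7%. HSPA6, HSPA1B, DNAJB1 and DNAJB4 were among those lowest in replicate 1. In the Act D-treated sub-line replicate 3 was the lowest for 23 members (59.0%), against 33.3%, and in vehicle-treated HCT 116p53-/- cells replicate 3 was the lowest for 22 (56.4%), against 32.6%. Genes that move together within a group give calls that are not independent of each other.

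On the TPM scale the order of levels within vehicle-treated HCT 116p53-/- cells began with HSPA8 (1181 ± 143) and HSP90AB1 (1036 ± 172), which did not differ beyond their spread, followed by HSPD1 (469 ± 70.0), HSP90AA1 (400.1 ± 50.1) and HSPE1 (353 ± 76.1), which overlapped each other. HSPA1B was 9th at 107 ± 3.51. In the vehicle-treated libraries labelled RPL3 KO the order was HSPA8 (679 ± 70.8), HSP90AB1 (586 ± 49.6) and then HSPA1B (421 ± 57.0), which overlapped HSPD1 (355 ± 16.7) below it. The least abundant members there were HSPA1L (0.0867 TPM) and HSPA13 (0.09 TPM).

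The wider chaperone network was described by 118 further genes in 11 lists, of which 107 were tested. For each list below, the share of all genes tested was 35.1% higher and 36.2% lower with vehicle in the counts. In the libraries labelled RPL3 KO, 52 of the 107 were higher and 30 were lower with vehicle (76.6%, beside 71.3% of all genes), with a median of 0.144. This split depended on the scale: it was 40 and 36 with library size alone and 18 and 48 on TPM, where 18% of all genes were higher and 47% lower. All 9 ER chaperones were higher in the counts, among them HSPA5 (BiP, log2 1.49, SE 0.21, adjusted p = 4.16e-06), its exchange factor SIL1 (1.48), the disulfide isomerase PDIA4 (1.18) and HSP90B1 (GRP94, 0.66). They were higher with Act D as well. With library size alone 5 of the 9 passed, all higher, and on TPM HSPA5, SIL1 and PDIA4 were higher (0.97, 0.95 and 0.66) and PDIA3 lower (-0.40). Of 6 prefoldin genes, 4 were higher and 1 lower, with PFDN2 at 1.31, while the CCT chaperonin split into 3 higher and 1 lower, with CCT6A at -1.11 and CCT4 at 0.88. On TPM 2 prefoldin genes were higher and 2 lower, and 1 CCT gene was higher, CCT4, and 5 lower. Among other J-domain genes, 17 were higher and 9 lower, against 6 and 12 on TPM. DNAJC12 was at 1.45 ± 0.355 CPM in vehicle-treated HCT 116p53-/- cells and at 25.9 ± 1.90 CPM in the vehicle-treated sub-line, and DNAJC15, a mitochondrial J-domain protein, at 11.7 ± 1.18 and 0.317 ± 0.198 CPM. Of 9 tested HSF genes and regulators of HSF1, 2 were higher and 6 lower (0 and 6 on TPM), led by HDAC6, which takes part in releasing HSF1 from HSP90 (-2.08, SE 0.13, adjusted p = 1.48e-10).

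With Act D in HCT 116p53-/- cells, 16 of these 107 genes rose (15%, beside 7.59% of all genes) and 7 fell (6.54%, beside 11.1%), 23 in all (21.5%, beside 18.7%). With library size alone 4 rose and 8 fell, and on TPM 1 rose and 1 fell. The J-domain gene DNAJA4 (0.64), the mitochondrial exchange factor GRPEL1 (0.48) and the prefoldin PFDN4 (0.41) rose and the ubiquitin ligase STUB1 (CHIP) fell by 0.32 on the log2 scale. In the libraries labelled RPL3 KO, 1 of the 107 rose, FKBP5 (0.47), and 14 fell (0.935% and 13.1%, beside 3.51% and 8.4% of all genes), among them DNAJC5 (-0.95, SE 0.12, adjusted p = 4.29e-05) and SGTA (-0.62). The count in HCT 116p53-/- cells was 7 without Act D replicate 1, and 9 to 12 without any other library of that line. That in the sub-line was 9 without Act D replicate 1.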

How the data were processed

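Total RNA of 12 cultures, 3 biological replicates in each of 4 groups, was sequenced by the authors as paired-end TruSeq libraries on a NovaSeq. They trimmed the reads, removed rRNA and PhiX reads and counted against hg38 with RSEM 1.2.25 (per the submitters' processing notes). The deposited expected counts are RSEM's estimated counts per gene, not normalized, and were rounded to whole numbers for the tests. The deposited TPM values were scaled by the authors for transcript length and library. The score column as deposited holds RSEM's posterior SD of each count and was kept only beside the members. Replicate 2 of vehicle-treated HCT 116p53-/- cells was deposited per transcript, was summed here per gene and has no such SD. Groups came from the sample labels, in which the sub-line is called RPL3 KO.

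All 60617 gene identifiers had values, 34109 had a count in some library, and 60261 matched GENCODE v44, which gave symbols and coordinates. HSPB11 was found under its current name IFT25. Genes passing filterByExpr (15692) were fitted with edgeR 4.0.16 (R 4.3.3; glmQLFit and glmQLFTest) with a coefficient per group and TMM factors (0.847 to 1.148; common dispersion 0.0117), and p-values were adjusted by Benjamini-Hochberg over all genes tested at a threshold of 0.05. CPM used the TMM-scaled library. No 2 replicates were alike within sampling noise. On simulated counts for the Act D comparison in HCT 116p53-/- cells, with 200 of 13411 genes changed by a log2 of 1, 169 were recovered with 13 false calls. Genes were drawn independently there. Smaller changes, such as those of most members called in that comparison, were not simulated. Alternatives were library size alone, upper-quartile scaling, DESeq2 1.42.0, the edgeR likelihood-ratio test, other filters, a replicate block, only the groups compared, a log2 fold change of at least 1, leaving out each library, and limma 3.58.1 on log2(TPM + 0.5) without further scaling; the last, and leaving out libraries for the wider network, were added after seeing the data.

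The members and lists were chosen with earlier results of these data known. Values in every library are given for members past the threshold with a log2 change of at least 0.5 in an Act D comparison or the interaction and for up to 12 with the largest difference between the lines, and at most 4 genes are named per network list and comparison. Promoters are those of RefSeq, GRCh38.p14, and shared sequence was counted in 75-base stretches of the longest coding transcript. HSPA1A, HSPA8, HSP90AB1, DNAJB11 and HSF1 were given the same way for their roles, after their values were seen. Protein sequences were not used here. Of the wider network, 1 gene is counted but not reported here.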

Additional observations from a re-analysis of the deposited data

Results flagged for a closer look

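The response to Act D differed between the lines by the interaction test of edgeR for 5 of the 39 members (12.8%) and for 9 of the 107 genes of the wider network that were tested (8.41%), beside 6.53% of all genes tested. The share of the network is close to that of all genes. The values are the log2 response in the libraries labelled RPL3 KO minus that in HCT 116p53-/- cells, each over 3 libraries a group. Among the members the difference was -0.76 for BAG3, -3.49 for CRYAB, -0.43 for DNAJA2, -2.81 for HSPA6 and -0.57 for BAG1. Of these, BAG3 and CRYAB passed under every other scaling, filter, tool and left-out library run on the counts and CRYAB alone also on TPM with limma, while DNAJA2, HSPA6 and BAG1 each missed the threshold under some. In the wider network the autophagy receptor SQSTM1 (-0.62), the AAA ATPase VCP (-0.42) and the mitochondrial exchange factor GRPEL1 (-0.59) differed the same way. So did the HSP70 cochaperone SGTA (-0.70), the J-domain gene DNAJC5 (-0.62), the ubiquitin ligase subunit FBXW7 (-0.65) and the acetyltransferase EP300 (-0.48). FKBP5, an HSP90 cochaperone, was the exception among the genes named here, with a difference of 0.67. On TPM with limma no network gene passed for this difference (8 of 107 at an unadjusted p under 0.05, 7.48%, beside 11.1% of all genes). Groups of 3 were too small to be searched for outlying samples.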

How the results depend on the processing

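The count of members changed between the lines was 29 to 32 with vehicle and 24 to 29 with Act D when 1 library was left out, and 19 and 14 with a log2 threshold of 1. For Act D in HCT 116p53-/- cells it was 3 to 15 without 1 library, 6 with library size alone and 4 with the log2 threshold; in the sub-line it was 2 to 6 and, with the log2 threshold, 0. The interaction count was 2 to 8 without 1 library, 3 with library size alone, 10 without a filter and 2 with the log2 threshold. Network counts were 79 to 84 and 78 to 84 between the lines without 1 library (26 and 26 with the log2 threshold), 7 to 25 for Act D in HCT 116p53-/- cells (12 with library size alone, 0 with the log2 threshold), 9 to 15 in the sub-line (0) and 4 to 9 for the interaction (0). HSPA1A and HSPA1B summed changed with Act D in HCT 116p53-/- cells by 0.52 to 0.65 without 1 library and 0.48 with library size alone (adjusted p = 0.0831). Library size alone turned HSPA4 with Act D to -0.0341 and DNAJC7 with vehicle to -0.008. On the deposited TPM with limma, chosen after seeing the data, the counts with Act D were 3 for members in HCT 116p53-/- cells, 0 in the sub-line and 1 for the interaction, and 2, 2 and 0 for the network (16, 14 and 8 at an unadjusted p under 0.05), and the sum of HSPA1A and HSPA1B was 0.51 in HCT 116p53-/- cells (adjusted p = 0.151). For single genes that passed on either scale, the difference between the lines with vehicle turned to -0.24 for HSPA4, -0.0254 for HSPA4L, -0.19 for HSP90AA1, -0.43 for CHORDC1, -0.32 for DNAJA2, -0.30 for DNAJC7, -0.0377 for HSPA9, -0.39 for HSPD1 and -0.40 for RPL3. With Act D it turned to -0.47 for HSPA4, -0.35 for HSPA4L, -0.52 for CHORDC1, -0.27 for DNAJA1, -0.0315 for BAG1, -0.14 for BAG3, -0.0604 for HSPA9, -0.41 for HSPD1 and -0.42 for RPL3. Over all genes limma on TPM called 737 and 235 with Act D and 71 for the interaction, against 2939, 1869 and 1025 in the counts. Of the single-gene values, DESeq2 kept 192 on their side of the threshold, moved 3 past it and lost 1, and upper-quartile scaling kept 199 and lost 1. The causes of these changes were not tested.

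Same-numbered replicates did not deviate together (r from -0.104 to 0.101 over all genes), so they share only a number. With a replicate block the interaction count was 3 for members and the count for Act D in HCT 116p53-/- cells 12 for the network, and 5 single-gene calls were lost. Depth (10087925 to 21138886 counts) limits HSPA1L, CRYAB and DNAJB5 in both lines, HSPA6 and HSPA2 in HCT 116p53-/- cells and HSPA13 and HSPA1A in the sub-line, which rest on few counts. CRYAB had 41 counts over the 3 Act D-treated libraries of the sub-line.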
